A study of Mus musculus with 9 samples.

Results

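Microneedles loaded with IL-2 and CCL22 were compared with empty microneedles in mouse skin, using 6 of the 9 RNA libraries of the study, 3 for each device, chosen by their treatment labels. Microneedles are short needles that release a load in the skin. The loaded device carried both proteins and the empty device carried neither, so the needles themselves were common to both groups. All libraries came from skin lesions labelled AA-like, and the study's subject was alopecia driven by immune cells. The other 3 libraries came from lesions given no device, and their values are set beside the contrast only for reference. The sources used here do not give the strain, age, sex, dose, time of sampling or the way the lesions arose. Nothing in the labels ties each library to an animal of its own. The p-values therefore cover the spread between these libraries alone, and that spread may be technical.

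IL-2 drives T cell growth and signals through JAK kinases and STAT5, and regulatory T cells depend on it. CCL22 is a ligand of the chemokine receptor CCR4 and draws cells that carry it, among them many regulatory T cells. A growing hair follicle is fed by dividing matrix cells at its base, which respond to Wnt and hedgehog signals and to the dermal papilla, and which form the hair shaft and the root sheaths. The follicle is held to be hidden from T cells by low antigen presentation and local inhibitory signals, called immune privilege, and in alopecia areata interferon-gamma and cytotoxic T cells bearing NKG2D are known to break it.

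Total counts lay between 85962714 and 96740589 in the 9 libraries. The table lists 54456 genes, of which 26081 passed the filter on low counts, and edgeR called 10805 between the devices at an adjusted p under 0.05. That is 41.4% of the tested genes, with 5971 higher (22.9%) and 4834 lower (18.5%) with the loaded device, and the split depends on the scaling, since 44.4% of the calls were higher under upper-quartile scaling against 55.3% here. Most changes were small: 513 called genes (1.97%) changed at least 2-fold, 207 upwards (0.794%) and 306 downwards (1.17%). For 13262 genes (50.8%) the 3 values of one device did not overlap those of the other. The median log2 fold change over all tested genes was 0.02. A pair of libraries differed by 1.81 to 3.55 times counting noise within a group (6 pairs, median squared difference) and by 8.24 to 11.6 times between the devices (9 pairs). Mitochondrially encoded genes held 3.67% ± 0.0611 of the counts with the loaded device, 3.24% ± 0.0563 with the empty device and 4.43% ± 0.0777 without a device (SD, n = 3 each). The exact permutation p between the devices was 0.10, the smallest that 3 against 3 can give (two-sided).

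The tissue label was checked against the epidermal keratins Krt5 and Krt10, which were high in every library. Markers of several tissues moved with the contrast. The summed level of 15 hair shaft and companion keratins was 3821 to 4382 CPM with the empty device, 6912 to 7335 CPM with the loaded device and 5938 to 6017 CPM without a device. That of 26 skeletal muscle genes was 15890.2 to 18746 CPM with the empty device, 11398 to 12052 CPM with the loaded device and 12581 to 12933 CPM without a device, and that of 20 adipocyte genes was 1209 to 1254 CPM with the empty device, 1802 to 1851 CPM with the loaded device and 1564 to 1635 CPM without a device. CPM are counts scaled to a common library size. In bulk skin, fewer cells of a type and less RNA per cell cannot be told apart, and the part these tissues play in the differences of other genes was not tested. Reads in introns were counted too, so a gene that lies over another one can lose reads or carry part of the other's. Il2rg, described below, lies within another gene and has no counts. Among the tested genes named here, Krt5, Krt10, Gzmk, Tchh, Gata3, Shh, Gli1, Wnt5a, Lef1, Lgr5, Corin, Scube3, Alx4, Rspo3, Pmel, Rptn, Il2, Dpp4, Stat5a, Jak1, Cish, Foxp3, Ikzf2, Ulbp1, Cd274, Igf1, Cxcl10, Ciita, Tap1, Csf1r, Folr2, Ccl21a, Il18, Far2, Myh1, Mb, Cox6a2, Tnc, Mmp12, Prox1, Mbp, Dusp1, Hspa1a, Nr1d1, Nnat, Wfdc12, Pitx1 and Nmu, and Gzmk, lie over another tested gene, and their values are uncertain for that reason.

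**Figure D1:**
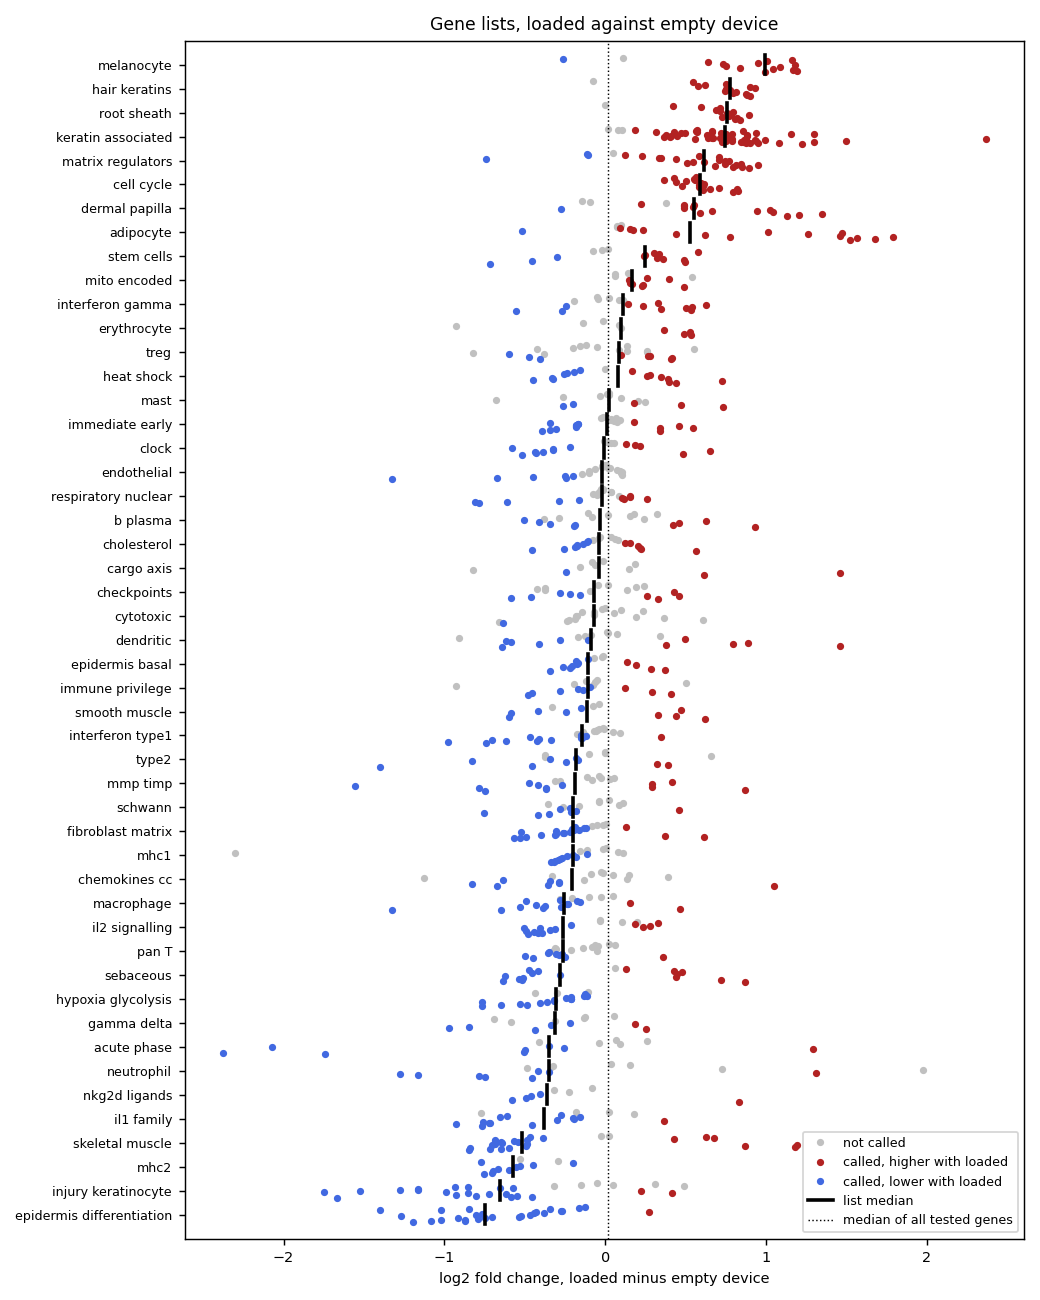
Log2 fold change, loaded minus empty device, of every tested member of 49 gene lists (x axis), with the lists ordered by their median (black bar). Red and blue points are called higher and lower, grey points are not called, and the dotted line is the median of all tested genes, 0.02. Melanocyte, hair and root sheath lists sit at the top with medians of 0.99, 0.77 and 0.76, and the epidermal differentiation list sits at the bottom with a median of -0.75.

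Genes of the hair follicle were higher with the loaded device as a block. Of 15 hair shaft and companion keratins 14 rose (median 0.77), of 15 root sheath genes 14 rose (median 0.76), and of 55 keratin-associated proteins 52 rose (median 0.74). Keratin-associated proteins cross-link the keratins of the hair shaft. Krt31, an acidic keratin of the hair cortex, stood at 245, 259 and 229 CPM with the empty device, 468, 461 and 439 CPM with the loaded device and 340.5, 353 and 350.3 CPM without a device. All 3 loaded libraries lay above all 3 empty ones, and the untreated ones lay between them. Such a lack of overlap between the devices, here and in the genes below, was shared by 50.8% of all tested genes. Krt25, a keratin of the inner root sheath, stood at 3326, 3577 and 3107 CPM with the empty device and 5987, 6021 and 5628 CPM with the loaded device, again without overlap (edgeR log2 fold change 0.82 with SE 0.043 and adjusted p = 1.08e-14). Tchh, the gene of trichohyalin, which hardens the inner root sheath, stood at 10188, 10354 and 9228 CPM with the empty device and 17862, 17526 and 16316 CPM with the loaded device (edgeR log2 fold change 0.80 with SE 0.046 and adjusted p = 4.79e-14). Krtap31-1, a keratin-associated protein gene, rose from 12.6 ± 1.39 to 30.96 ± 1.08 CPM (mean ± SD, n = 3 each; edgeR log2 fold change 1.30 with SE 0.061 and adjusted p = 6.29e-13). Krt84, a basic hair keratin, was not called at a log2 fold change of -0.08 (SE 0.045), and neither was Gata3, a regulator of inner root sheath fate, at a log2 fold change of -0.0031 (SE 0.032).

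LEF1 is a transcription factor of the hair matrix that acts with beta-catenin, and promoters of hair genes were searched for its core motif. The motif was CTTTG followed by A or T at both of the next positions, on either strand, in the 250 bases before the start of each gene in RefSeq's annotation of GRCm38.p6. It was found in 5 of the 10 hair keratin promoters in the table, in 16 of 50 for keratin-associated genes and in 2 of 13 for root sheath genes (15.4%). Over all 27025 promoters the share was 14.9%, and over 22 promoters of epidermal differentiation genes, most of which fell, it was 27.3%. The sequences shown belong to genes with large increases whose promoters hold the motif, 5′ to 3′ on the strand of the gene with matches in capitals. They lie at chr11:100050552-100050801 (minus strand) for Krt31, chr11:100029869-100030118 (minus strand) for Krt33b, chr11:99907670-99907919 (plus strand) for Krtap31-1, chr16:89571184-89571433 (minus strand) for Krtap11-1 and chr11:99322952-99323201 (minus strand) for Krt25. A match is a description of the sequence and not a measured site.
Krt31: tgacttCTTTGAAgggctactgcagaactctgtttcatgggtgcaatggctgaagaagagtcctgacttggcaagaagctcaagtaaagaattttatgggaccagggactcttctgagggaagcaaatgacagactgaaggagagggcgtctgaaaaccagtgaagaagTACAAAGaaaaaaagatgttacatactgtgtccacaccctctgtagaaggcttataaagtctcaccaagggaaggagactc
Krt33b: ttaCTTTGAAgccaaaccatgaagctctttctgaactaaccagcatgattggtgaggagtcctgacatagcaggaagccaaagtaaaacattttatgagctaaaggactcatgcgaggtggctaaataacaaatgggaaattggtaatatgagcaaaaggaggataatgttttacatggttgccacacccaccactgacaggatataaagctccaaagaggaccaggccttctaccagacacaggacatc
Krtap31-1: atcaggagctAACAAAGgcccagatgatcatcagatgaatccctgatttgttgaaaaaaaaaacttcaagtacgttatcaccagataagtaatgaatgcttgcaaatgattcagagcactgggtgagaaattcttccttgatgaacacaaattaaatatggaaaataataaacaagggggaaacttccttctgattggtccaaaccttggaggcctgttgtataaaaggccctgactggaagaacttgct
Krtap11-1: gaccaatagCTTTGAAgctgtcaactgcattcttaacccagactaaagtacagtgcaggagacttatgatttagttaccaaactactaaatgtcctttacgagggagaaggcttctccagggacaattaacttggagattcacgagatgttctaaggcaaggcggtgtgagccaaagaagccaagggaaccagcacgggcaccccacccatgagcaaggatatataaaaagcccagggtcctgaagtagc
Krt25: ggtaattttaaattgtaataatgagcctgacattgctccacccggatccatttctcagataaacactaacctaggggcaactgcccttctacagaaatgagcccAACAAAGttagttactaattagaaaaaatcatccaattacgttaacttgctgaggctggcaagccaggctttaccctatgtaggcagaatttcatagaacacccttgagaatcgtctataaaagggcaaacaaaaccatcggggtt
Krt31 holds 2 matches and each of the others 1. The matches of the keratin-associated genes and of Krt33b, and the first match of Krt31, lie near the far end of the window. Krt33b rose from 152 ± 10.7 to 284 ± 11.6 CPM (edgeR log2 fold change 0.90 with SE 0.044 and adjusted p = 8.88e-13). Krtap11-1 stood at 360.5, 392 and 344 CPM with the empty device and 776, 786 and 753 CPM with the loaded device, without overlap.

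Regulators of the hair matrix moved the same way. Of 25 tested, 21 rose and 3 fell (median 0.61). Shh, the hedgehog ligand made by matrix cells, stood at 9.40, 9.79 and 8.52 CPM with the empty device and 16.4, 16.4 and 14.5 CPM with the loaded device (edgeR log2 fold change 0.77 with SE 0.060 and adjusted p = 1.43e-11). Gli1, its transcriptional target, stood at 24.5, 25.1 and 24.3 CPM with the empty device and 41.4, 38.4 and 39.1 CPM with the loaded device (edgeR log2 fold change 0.69 with SE 0.039 and adjusted p = 2.49e-14), and the receptor gene Ptch1 rose by 0.51 on the log2 scale. Neither Shh nor Gli1 overlapped between the devices, as was the case for 50.8% of all tested genes. Wnt5a and Wnt10b, Wnt ligands of the follicle, rose by log2 fold changes of 0.81 and 0.85, and Lef1 rose by 0.89 on the log2 scale. Hoxc13 and Foxn1, transcription factors that drive hair keratin genes, rose by log2 fold changes of 0.75 and 0.55. The matrix regulator with the largest fall was Eda2r, a receptor for an ectodysplasin isoform, at 7.65, 7.64 and 8.76 CPM with the empty device and 4.75, 4.70 and 4.96 CPM with the loaded device (edgeR log2 fold change -0.74 with SE 0.071 and adjusted p = 9.26e-10). Of 15 tested stem cell genes, 9 rose and 3 fell (median 0.25), with Lgr5 and Lhx2, genes of bulge and hair germ cells, up by log2 fold changes of 0.36 and 0.49. Tgm5, a transglutaminase gene in that list, fell by 0.72 on the log2 scale.

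The dermal papilla is the cluster of mesenchymal cells that instructs the matrix. Of its 18 tested genes 14 rose and 1 fell (median 0.55). Corin, a protease of the papilla, stood at 9.81, 11.1 and 9.52 CPM with the empty device, 24.8, 23.3 and 21.99 CPM with the loaded device and 17.4, 15.7 and 15.98 CPM without a device, with no overlap between the devices (edgeR log2 fold change 1.20 with SE 0.059 and adjusted p = 5.81e-15). Scube3, a secreted papilla factor, stood at 5.57, 5.30 and 5.495 CPM with the empty device and 15.1, 14.1 and 12.4 CPM with the loaded device (edgeR log2 fold change 1.35 with SE 0.080 and adjusted p = 5.40e-12), and Wif1, a secreted Wnt inhibitor, at 12.8, 11.6 and 10.9 CPM with the empty device and 25.6, 27.3 and 24.2 CPM with the loaded device (edgeR log2 fold change 1.13 with SE 0.055 and adjusted p = 5.74e-15). In these 3 genes every loaded library exceeded every empty one, and 50.8% of all tested genes likewise had no overlap between the devices. Hhip and Alx4 rose by log2 fold changes of 1.05 and 0.94, while Igfbp3, an IGF-binding protein, fell by 0.28 on the log2 scale. Rspo3 and Rspo4, secreted R-spondins, which strengthen Wnt signalling, rose by log2 fold changes of 1.02 and 0.66.

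Pigment cell genes were higher with the loaded device, with the highest median of all the lists. Of 15 melanocyte genes 13 rose and 1 fell (median 0.99). Tyr, the gene of tyrosinase, the first enzyme of melanin synthesis, stood at 15.8, 16.4 and 14.9 CPM with the empty device, 37.8, 35.9 and 34.1 CPM with the loaded device and 38.5, 36.5 and 36.9 CPM without a device, with the untreated libraries beside the loaded ones. Pmel, which builds the melanosome's fibrils, stood at 56.3, 63.2 and 56.4 CPM with the empty device and 124, 124 and 115 CPM with the loaded device (edgeR log2 fold change 1.04 with SE 0.041 and adjusted p = 1.52e-15), and Kit, the receptor melanocytes need, at 16.9, 17.7 and 16.1 CPM with the empty device and 29.5, 27.7 and 27.1 CPM with the loaded device (edgeR log2 fold change 0.73 with SE 0.046 and adjusted p = 2.11e-13). Edn3, the gene of endothelin-3, a growth signal for melanocytes, was one of the 12 highest genes with a mean of 1 CPM or more and stood at 1.30, 1.66 and 1.26 CPM with the empty device, 5.65, 5.81 and 5.96 CPM with the loaded device and 4.38, 3.76 and 3.65 CPM without a device (edgeR log2 fold change 2.04 with SE 0.10 and adjusted p = 2.72e-15). Its receptor gene Ednrb rose by 0.84 on the log2 scale. Rab38, which helps carry pigment enzymes, fell by 0.26 on the log2 scale, and Sox10, a transcription factor of melanocytes and Schwann cells, was not called at a log2 fold change of 0.11 (SE 0.083).

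All 20 tested cell cycle genes rose (median 0.59). Mki67, a marker of dividing cells, stood at 116, 111 and 107 CPM with the empty device, 201, 201 and 190.0 CPM with the loaded device and 213, 195 and 205 CPM without a device, so that the loaded libraries lay above the empty ones and near the untreated ones. Bub1, a spindle checkpoint kinase, stood at 12.6, 13.4 and 12.1 CPM with the empty device and 22.1, 23.2 and 21.8 CPM with the loaded device (edgeR log2 fold change 0.82 with SE 0.050 and adjusted p = 1.15e-13). The smallest change in the list was that of Rrm2, a subunit of ribonucleotide reductase, at a log2 fold change of 0.37 (SE 0.033). The levels of the hair lists in each library stand side by side in the plot of list levels.

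**Figure D2:**
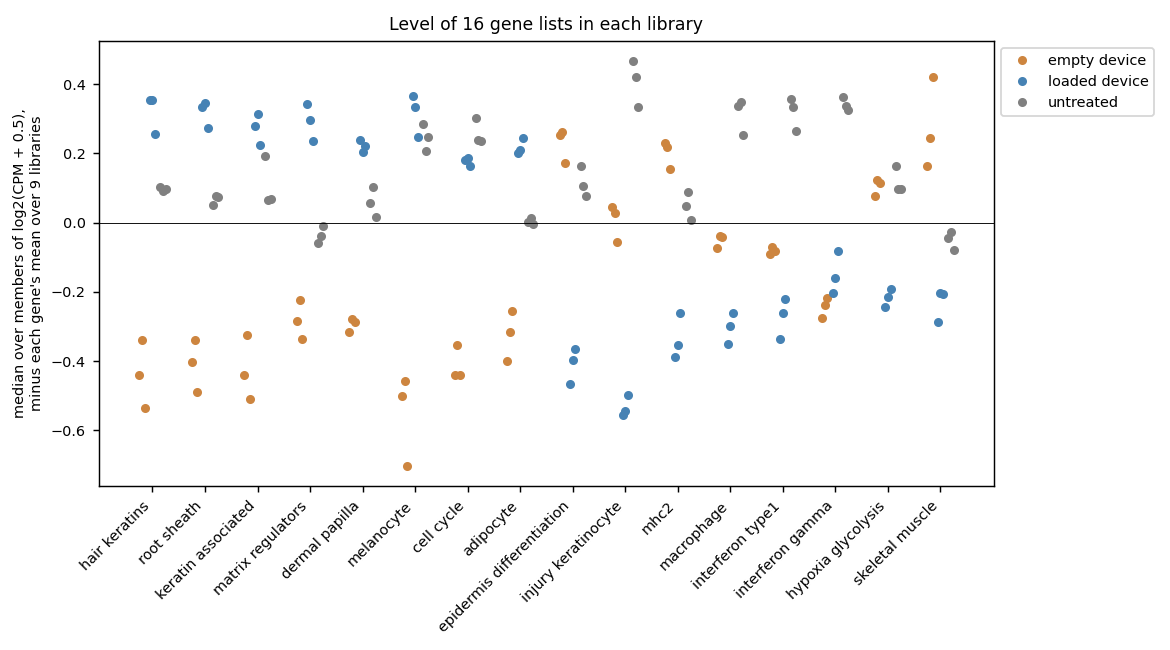
Level of 16 gene lists in each of the 9 libraries: the median over tested members of log2(CPM + 0.5) minus each gene's mean over the 9 libraries (y axis), by list (x axis), 1 point per library. The loaded libraries lie above the empty ones in the follicle, cell cycle and adipocyte lists and below them in the epidermal, MHC class II, macrophage, type I interferon, hypoxia and muscle lists.

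The cornified epidermis went the other way. Of 27 genes of epidermal differentiation and the barrier 26 fell and 1 rose (median -0.75). Krt1 and Krt10 form the keratin filaments of suprabasal cells. Krt1 stood at 12969, 12636 and 12129 CPM with the empty device, 5783, 5814 and 6224 CPM with the loaded device and 9487, 9478 and 9224 CPM without a device, and the empty libraries were the highest of all 9 (edgeR log2 fold change -1.08 with SE 0.040 and adjusted p = 6.61e-18). Casp14, a protease of the cornified layer, stood at 1135, 1036 and 1027 CPM with the empty device and 458, 452 and 485 CPM with the loaded device (edgeR log2 fold change -1.20 with SE 0.039 and adjusted p = 4.37e-19). Flg, which encodes filaggrin, the keratin-aggregating barrier protein, stood at 2649, 2038 and 2518 CPM with the empty device and 1147, 1204 and 1204 CPM with the loaded device (edgeR log2 fold change -1.02 with SE 0.091 and adjusted p = 3.58e-05). Neither Casp14 nor Flg overlapped between the devices, nor did 50.8% of all tested genes. Tgm3, a transglutaminase also found in the hair follicle, was the member called higher, at a log2 fold change of 0.27. Basal genes were divided, with 4 up and 8 down of 15 tested (median -0.11). Krt5, the basal keratin, was not called at a log2 fold change of -0.01 (SE 0.037) and stood at 4891, 5101 and 4993 CPM with the empty device and 4874, 4927 and 5074 CPM with the loaded device, whereas its partner Krt14 fell by 0.18 on the log2 scale. Klf5, a basal cell regulator, fell by 0.35 on the log2 scale and Cdh3, the P-cadherin gene, rose by 0.37 on the log2 scale.

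Promoters of these genes were searched for the AP-1 motif, read by the FOS and JUN factors that act in epidermal differentiation. The motif was TGANTCA, where N is any base, on either strand, in the same windows. It was found in 5 of 22 promoters of epidermal differentiation genes (22.7%), in 10 of 50 for keratin-associated genes and in 6.87% of all 27025 promoters. The examples are those of Rptn, at chr3:93393449-93393698 (plus strand), and of Lor, at chr3:92083143-92083392 (minus strand), both from RefSeq's GRCm38.p6.
Rptn: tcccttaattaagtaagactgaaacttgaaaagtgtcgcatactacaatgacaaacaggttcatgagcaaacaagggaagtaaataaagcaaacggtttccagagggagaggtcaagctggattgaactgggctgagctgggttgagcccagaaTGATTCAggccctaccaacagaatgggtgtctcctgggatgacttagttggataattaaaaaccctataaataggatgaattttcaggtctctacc
Lor: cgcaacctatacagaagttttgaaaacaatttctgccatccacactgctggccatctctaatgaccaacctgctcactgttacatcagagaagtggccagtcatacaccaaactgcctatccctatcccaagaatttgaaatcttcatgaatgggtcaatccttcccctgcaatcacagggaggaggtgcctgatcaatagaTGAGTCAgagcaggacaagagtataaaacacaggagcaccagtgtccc
Each holds 1 match, in capitals, which in Lor lies close to the start of the gene. Rptn encodes repetin, a cornified envelope precursor, and stood at 322, 279 and 279 CPM with the empty device, 105, 109 and 119 CPM with the loaded device and 487, 443 and 429 CPM without a device, with every loaded library below every empty one (edgeR log2 fold change -1.40 with SE 0.076 and adjusted p = 3.39e-07). Lor, the gene of loricrin, the main cornified envelope protein, stood at 2931, 3130.4 and 2810.1 CPM with the empty device and 1415, 1477 and 1481 CPM with the loaded device, also without overlap (edgeR log2 fold change -1.02 with SE 0.042 and adjusted p = 1.33e-16).

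Keratinocyte genes of injury and inflammation were mostly lower with the loaded device. Of 27 tested, 19 fell and 2 rose (median -0.66). Krt6b and Krt16 are keratins made by wounded or activated epidermis. Krt6b stood at 232, 218 and 192 CPM with the empty device, 61.9, 62.2 and 66.6 CPM with the loaded device and 699, 618 and 607 CPM without a device, so that the order was untreated, empty and loaded without overlap (edgeR log2 fold change -1.75 with SE 0.082 and adjusted p = 2.46e-07). Krt16 stood at 504, 515 and 445 CPM with the empty device and 262, 268 and 279.8 CPM with the loaded device (edgeR log2 fold change -0.85 with SE 0.059 and adjusted p = 4.88e-08). Krt17, which the follicle also makes, was called higher, at a log2 fold change of 0.22. Sprr2d, a small proline-rich envelope protein of stressed epidermis, stood at 22.1, 22.03 and 20.3 CPM with the empty device and 6.05, 6.67 and 7.56 CPM with the loaded device (edgeR log2 fold change -1.67 with SE 0.062 and adjusted p = 1.45e-17). Members of the Krt6, Sprr2 and stefin groups share sequence, and the split of reads between them is uncertain.

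The cargo is protein, and only transcripts made in the skin are counted here. Ccl22, on chromosome 8 from 95472218 to 95478327 in mm39, stood at 4.45, 4.39 and 4.06 CPM with the empty device, 10.5, 11.2 and 13.7 CPM with the loaded device and 7.96, 7.25 and 8.10 CPM without a device. The loaded libraries were the highest of the 9 and the empty ones the lowest, without overlap (edgeR log2 fold change 1.46 with SE 0.085 and adjusted p = 2.86e-12). Il2 transcripts were rare, counted 18, 12 and 25 times in the empty-device libraries, 19, 15 and 26 times in the loaded-device libraries and 24, 11 and 22 times in the untreated libraries, and were not called (edgeR log2 fold change 0.18 with SE 0.36 and adjusted p = 0.727). Ccr4, the CCL22 receptor, stood at 4.09, 4.97 and 5.24 CPM with the empty device and 4.44, 4.25 and 5.01 CPM with the loaded device with overlapping groups (edgeR log2 fold change -0.06 with SE 0.087 and adjusted p = 0.611). Ccl17, the other CCR4 ligand, was counted 14, 18 and 20 times in the empty-device libraries, 11, 18 and 18 times in the loaded-device libraries and 89, 69 and 71 times in the untreated libraries, and its difference between the devices was not detectable at this depth (edgeR log2 fold change -0.08 with SE 0.31 and adjusted p = 0.866). Dpp4 encodes a protease that trims chemokines, CCL22 among them, and is made by dermal fibroblasts. It stood at 66.2, 64.9 and 58.6 CPM with the empty device, 98.9, 98.96 and 92.4 CPM with the loaded device and 93.5, 90.5 and 92.6 CPM without a device and rose with the loaded device (edgeR log2 fold change 0.61 with SE 0.039 and adjusted p = 2.54e-12).

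Of 10 tested genes on a list of IL-2, CCL22, their receptors, related chemokines and the protease gene Dpp4, 2 rose, namely Ccl22 and Dpp4, and 1, Il2rb, fell (median -0.04). Il2ra, the alpha chain of the receptor that regulatory T cells display, stood at 0.897, 0.614 and 0.829 CPM with the empty device and 0.570, 0.778 and 0.746 CPM with the loaded device with overlapping groups (edgeR log2 fold change -0.16 with SE 0.19 and adjusted p = 0.552). Il2rb, the beta chain, stood at 3.93, 3.17 and 3.86 CPM with the empty device and 3.19, 2.94 and 3.13 CPM with the loaded device and was called lower (edgeR log2 fold change -0.24 with SE 0.093 and adjusted p = 0.0367), a call lost without any 1 of 5 libraries, namely all 3 loaded ones and empty libraries 1 and 3, by limma-voom and with library size alone as the scale. Il2rg, the common gamma chain, is listed at 0 in every library and was not tested. It lies wholly within the predicted gene Gm20489 on the same strand, so its expression cannot be read from these counts. On a list of 18 JAK-STAT genes, targets and related genes such as Il15 and Il7r, 10 fell and 4 rose (median -0.26). Not all of them lie downstream of IL-2. Socs3, a feedback inhibitor of cytokine signalling, stood at 41.6, 42.02 and 39.8 CPM with the empty device and 29.1, 28.8 and 30.4 CPM with the loaded device (edgeR log2 fold change -0.48 with SE 0.037 and adjusted p = 1.25e-11). Stat5b and Stat5a, the transcription factors used by the IL-2 receptor, fell, at log2 fold changes of -0.42 and -0.44, Jak1 fell by 0.39 on the log2 scale and Cish, a STAT5 target, fell by 0.34 on the log2 scale. For Socs3 every loaded library lay below every empty one. These genes are used by many cytokines and by many skin cells. The number that rose was 2 without empty library 1 or loaded library 2, by DESeq2 and under upper-quartile scaling.

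Regulatory T cell genes did not move as a block. Of 21 tested, 5 rose, 3 fell and 13 were not called (median 0.09), a share called near the 41.4% of all tested genes. Foxp3, their defining transcription factor, was counted 20, 29 and 26 times in the empty-device libraries, 19, 36 and 24 times in the loaded-device libraries and 20, 31 and 33 times in the untreated libraries, and the groups overlapped (edgeR log2 fold change 0.14 with SE 0.29 and adjusted p = 0.752). A difference was not detectable at this depth. Nt5e, which encodes CD73, an enzyme that makes adenosine, rose by 0.41 on the log2 scale, and Areg, the growth factor amphiregulin, rose by 0.42 on the log2 scale. Both are made by other skin cells too. Ikzf2, the gene of the factor Helios, fell by 0.41 on the log2 scale, and Lrrc32, which holds TGF-beta at the cell surface, fell by 0.48 on the log2 scale. Icos, a co-stimulatory receptor, was counted 77, 82 and 75 times in the empty-device libraries, 37, 57 and 54 times in the loaded-device libraries and 109, 82 and 79 times in the untreated libraries and fell (edgeR log2 fold change -0.60 with SE 0.19 and adjusted p = 0.0138).

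**Figure D3:**
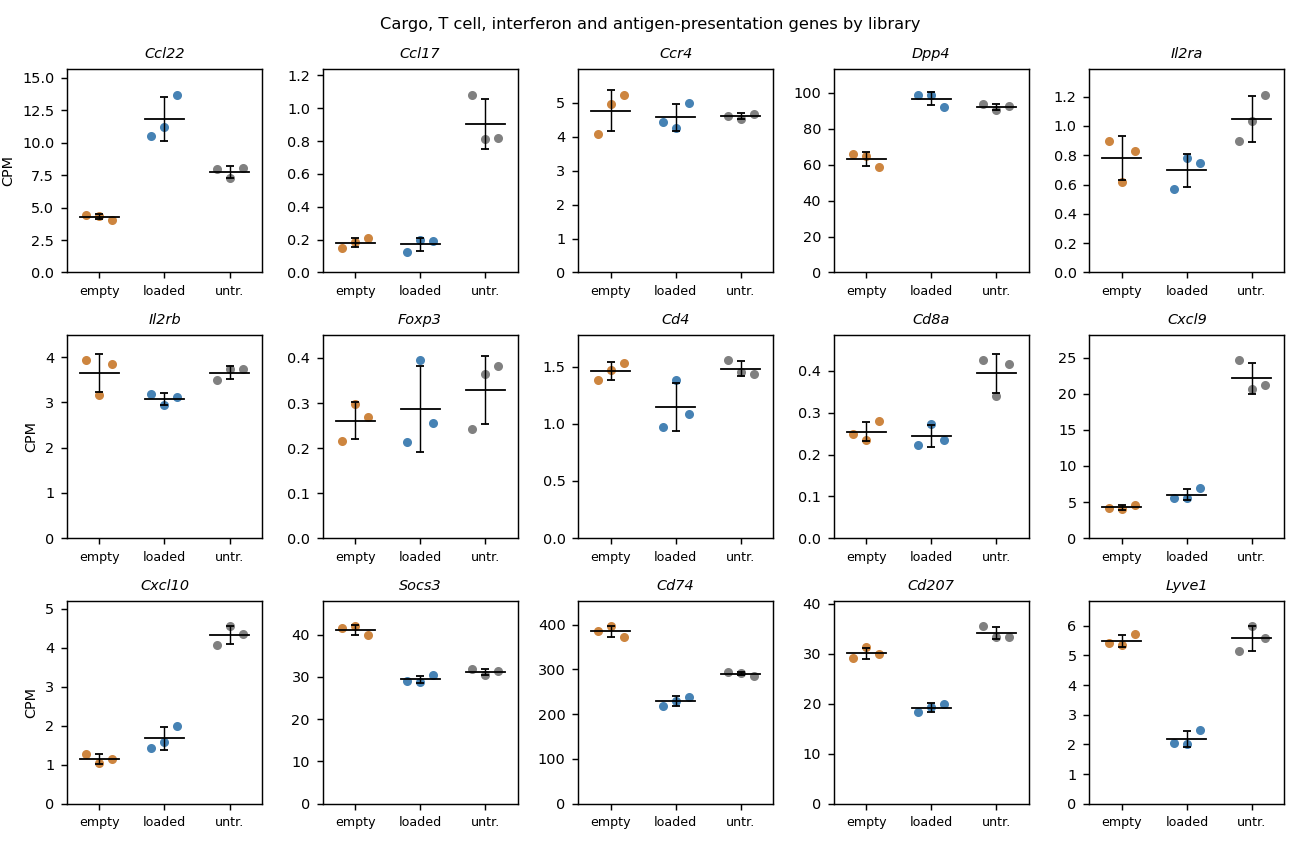
CPM of 15 cargo, T cell, interferon and antigen-presentation genes in every library (points), by group (empty device, loaded device, untreated), with the mean and SD of 3 libraries (bars). Ccl22 and Dpp4 are higher and Socs3, Cd74, Cd207 and Lyve1 lower in the 3 loaded than in the 3 empty libraries, whereas Foxp3, Il2ra, Ccr4 and Cd8a overlap.

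T cell genes were mostly lower where a difference was called. Of 20 tested, 8 fell, 1 rose and 11 were not called (median -0.26), and the number that fell was 5 without loaded library 3. Over all tested genes 41.4% were called, 22.9% higher and 18.5% lower, so T cell genes were called about as often as any gene. Trbc2, a constant segment of the T cell receptor beta chain, stood at 12.3, 12.7 and 12.1 CPM with the empty device and 8.82, 9.28 and 9.12 CPM with the loaded device (edgeR log2 fold change -0.45 with SE 0.059 and adjusted p = 3.03e-07). Cd3g, part of the receptor complex, fell by 0.25 on the log2 scale, and Lck, the kinase that starts its signal, rose by 0.36 on the log2 scale. Cd4 was called lower at a log2 fold change of -0.35 (SE 0.14), a call lost in 10 of 20 other settings, among them the omission of any empty library and of loaded library 1 or 3. Cd8a, the co-receptor of cytotoxic T cells, was counted 23, 23 and 27 times in the empty-device libraries, 20, 25 and 22 times in the loaded-device libraries and 35, 29 and 36 times in the untreated libraries and was not called (edgeR log2 fold change -0.06 with SE 0.27 and adjusted p = 0.888). Of 13 genes of gamma-delta and IL-17-type T cells 5 fell and 2 rose (median -0.31, and -0.20 without loaded library 1 or -0.17 under the stricter filter). Blk and Ccr6, a kinase and a chemokine receptor of such cells, had few reads and fell, at log2 fold changes of -0.97 and -0.84.

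Few cytotoxic effector genes were called, whereas 41.4% of all tested genes were. The list holds rare transcripts, such as Gzmb and Ifng below, in which smaller differences are not detectable at this depth. The lack of calls therefore does not show a lack of change. Of 19 tested, 18 were not called (median -0.07), and Ccl5, a T cell chemokine, fell by 0.64 on the log2 scale (edgeR adjusted p = 0.0155). That call was lost without loaded library 1 or 2, and 3 genes of the list fell under upper-quartile scaling. Gzmb, the gene of granzyme B, was counted 14, 9 and 17 times in the empty-device libraries, 15, 12 and 14 times in the loaded-device libraries and 45, 42 and 49 times in the untreated libraries, and Ifng, the gene of interferon-gamma, was counted 1, 9 and 6 times in the empty-device libraries, 9, 5 and 4 times in the loaded-device libraries and 21, 23 and 14 times in the untreated libraries. The devices overlapped in both genes. Of 8 genes of NKG2D, its ligands and adaptors, and IL-15, 4 fell and 1 rose (median -0.36). One that fell was Tyrobp, an adaptor that many myeloid receptors also use, at a log2 fold change of -0.46. H60c, a stress ligand of NKG2D in epidermis, stood at 71.7, 71.6 and 72.6 CPM with the empty device, 48.4, 46.3 and 49.8 CPM with the loaded device and 124, 108 and 109 CPM without a device, without overlap between the devices (edgeR log2 fold change -0.58 with SE 0.043 and adjusted p = 2.60e-10). Ulbp1, another such ligand, rose instead, with 4.80, 4.66 and 4.43 CPM with the empty device and 8.71, 8.24 and 7.80 CPM with the loaded device (edgeR log2 fold change 0.83 with SE 0.069 and adjusted p = 5.01e-11). Il15 and Il15ra, which sustain cytotoxic T cells, fell, at log2 fold changes of -0.41 and -0.49.

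Among 18 checkpoint genes 4 rose and 5 fell (median -0.07), and over all tested genes 22.9% were higher and 18.5% lower. Cd274, which encodes the inhibitory ligand PD-L1, stood at 7.02, 7.02 and 7.55 CPM with the empty device and 8.496, 7.72 and 9.68 CPM with the loaded device and rose (edgeR log2 fold change 0.26 with SE 0.071 and adjusted p = 0.00314), a call lost without loaded library 3. Havcr2, the gene of the inhibitory receptor TIM-3, fell by 0.59 on the log2 scale, and Vtcn1, another inhibitory ligand, rose by 0.46 on the log2 scale. Of 16 genes counted as guardians of follicular immune privilege 3 rose and 6 fell (median -0.11, and -0.18 without empty library 3). Igf1 and Tgfb1, growth factors in that list, rose by log2 fold changes of 0.29 and 0.13. Serpinf1 fell by 0.46 on the log2 scale and Cd200, an inhibitory surface protein of the follicle, fell by 0.14 on the log2 scale. The list thus held members that moved either way, and 41.4% of all tested genes were called.

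Interferon genes moved both ways. Of 18 genes induced by interferon-gamma 8 rose and 3 fell (median 0.11, and 0.07 without loaded library 3 or 0.06 under upper-quartile scaling), and the number that rose was 5 without empty library 1 or loaded library 3 and 5 by limma-voom. Cxcl9, a chemokine for activated T cells, stood at 4.10, 4.07 and 4.61 CPM with the empty device, 5.61, 5.53 and 6.96 CPM with the loaded device and 24.6, 20.6 and 21.2 CPM without a device, so that it rose with the loaded device (edgeR log2 fold change 0.50 with SE 0.099 and adjusted p = 5.12e-04) and both devices lay far below the untreated libraries. Cxcl10, a chemokine for the same receptor, stood at 1.29, 1.03 and 1.15 CPM with the empty device, 1.43, 1.59 and 2.002 CPM with the loaded device and 4.08, 4.56 and 4.34 CPM without a device (edgeR log2 fold change 0.54 with SE 0.13 and adjusted p = 0.00144). Of 25 genes of the type I response 12 fell and 1 rose (median -0.14). Mx1, an antiviral GTPase, fell by 0.74 on the log2 scale, and Oasl1 and Mx2 fell, at log2 fold changes of -0.98 and -0.62, whereas Ifit1, with 3.35, 3.66 and 3.40 CPM with the empty device, 3.24, 3.35 and 3.47 CPM with the loaded device and 16.1, 14.5 and 13.4 CPM without a device, was not called (edgeR log2 fold change -0.05 with SE 0.084 and adjusted p = 0.692).

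Genes of antigen presentation were lower with the loaded device. Of 12 genes of MHC class II presentation 10 fell (median -0.57), and of 17 of class I 10 fell (median -0.20). Cd74, the invariant chain that guides class II molecules, stood at 387, 397 and 372 CPM with the empty device, 218, 229 and 239.5 CPM with the loaded device and 294, 293 and 286 CPM without a device, with the loaded libraries the lowest of the 9 and the empty ones the highest (edgeR log2 fold change -0.75 with SE 0.036 and adjusted p = 9.10e-16). H2-Ab1, a class II chain, stood at 141, 148 and 146 CPM with the empty device and 83.9, 88.9 and 94.01 CPM with the loaded device (edgeR log2 fold change -0.71 with SE 0.037 and adjusted p = 7.29e-15), and Ciita, the transactivator of class II genes, fell by 0.55 on the log2 scale. H2-K1, a class I heavy chain, stood at 614, 662 and 635 CPM with the empty device and 507, 515 and 550.3 CPM with the loaded device (edgeR log2 fold change -0.28 with SE 0.036 and adjusted p = 2.15e-07), and Tap1, which loads peptides on class I, fell by 0.32 on the log2 scale. Class I and class II genes have close copies, and reads can be split between them.

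Genes of the cells that present antigen changed in both directions. Of 19 dendritic cell genes 5 rose and 6 fell (median -0.09). The share called was near the 58.2% of genes whose mean reached 1 CPM, and over all tested genes it was 41.4%. Cd207, the gene of langerin, which marks Langerhans cells, stood at 29.05, 31.2 and 29.9 CPM with the empty device, 18.3, 19.4 and 19.98 CPM with the loaded device and 35.5, 33.3 and 33.4 CPM without a device (edgeR log2 fold change -0.64 with SE 0.043 and adjusted p = 8.45e-13). Ccr7, which brings mature dendritic cells to lymph nodes, was counted 46, 71 and 70 times in the empty-device libraries, 122, 105 and 104 times in the loaded-device libraries and 75, 98 and 114 times in the untreated libraries and rose (edgeR log2 fold change 0.89 with SE 0.18 and adjusted p = 1.30e-04). Fscn1, an actin bundler of mature dendritic cells that other skin cells also make, rose by 0.38 on the log2 scale, and Cd1d1, a lipid-presenting molecule, rose by 0.79 on the log2 scale. Cd207 did not overlap between the devices, nor did Ccr7, a trait of 50.8% of all tested genes. Of 20 macrophage genes 13 fell and 2 rose (median -0.26). Lyve1, a receptor of lymphatic endothelium and of some tissue macrophages, stood at 5.42, 5.34 and 5.71 CPM with the empty device and 2.06, 2.02 and 2.503 CPM with the loaded device (edgeR log2 fold change -1.32 with SE 0.091 and adjusted p = 1.33e-12). Csf1r, the growth factor receptor of macrophages, fell by 0.65 on the log2 scale, C1qa, a complement gene they make, and Folr2 fell, at log2 fold changes of -0.39 and -0.53, while Mertk, a receptor for dying cells, rose by 0.47 on the log2 scale.

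Chemokine and inflammatory genes were lower on balance. Of 18 CC chemokines 7 fell and 1 rose (median -0.21), and the share called was near the 41.4% of all tested genes, of which 18.5% were lower. Ccl20, the ligand of CCR6, was the one that rose, with 1.97, 1.69 and 1.70 CPM with the empty device and 3.38, 3.49 and 4.20 CPM with the loaded device (edgeR log2 fold change 1.05 with SE 0.10 and adjusted p = 2.03e-09), and Ccl21a, the lymphatic ligand of CCR7, fell by 0.67 on the log2 scale. Of 15 neutrophil genes 7 fell and 1 rose (median -0.35, and -0.18 without empty library 2 or -0.79 under the stricter filter on low counts), the latter Cxcl1, counted 23, 25 and 19 times in the empty-device libraries, 43, 56 and 61 times in the loaded-device libraries and 20, 22 and 20 times in the untreated libraries (edgeR log2 fold change 1.31 with SE 0.24 and adjusted p = 5.11e-05). S100a8 and S100a9, alarmins of neutrophils and of activated keratinocytes, fell, at log2 fold changes of -1.16 and -1.28, and Cxcr2, a neutrophil chemokine receptor, fell by 0.75 on the log2 scale. Of 18 genes of the IL-1 family and its partners 13 fell and 1 rose (median -0.38). Il36a, an epidermal IL-1 family cytokine, stood at 52.3, 54.2 and 52.2 CPM with the empty device and 26.2, 27.4 and 29.8 CPM with the loaded device (edgeR log2 fold change -0.93 with SE 0.057 and adjusted p = 2.84e-09), and Il18 fell by 0.72 on the log2 scale. The gene of the inhibitor, Il36rn, fell by 0.77 on the log2 scale.

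Acute-phase genes held the gene with the smallest adjusted p of the lists. Chil1, a chitinase-like secreted protein, stood at 136, 139 and 133 CPM with the empty device, 40.6, 40.7 and 40.5 CPM with the loaded device and 110.2, 108 and 107 CPM without a device (edgeR log2 fold change -1.74 with SE 0.032 and adjusted p = 9.20e-25). Saa1, the gene of serum amyloid A1, stood at 2.55, 2.70 and 2.60 CPM with the empty device, 0.537, 0.515 and 0.458 CPM with the loaded device and 4.65, 4.07 and 3.95 CPM without a device and was among the 12 lowest genes of the contrast (edgeR log2 fold change -2.38 with SE 0.13 and adjusted p = 1.53e-14). Hp, the gene of haptoglobin, went against both and stood at 18.6, 22.1 and 18.2 CPM with the empty device, 46.4, 52.3 and 46.02 CPM with the loaded device and 74.2, 70.2 and 68.8 CPM without a device (edgeR log2 fold change 1.29 with SE 0.077 and adjusted p = 3.12e-07). Over the list 7 of 13 fell and 1 rose (median -0.35). Of 15 type 2 genes 7 fell and 2 rose (median -0.18). Retnla, which is induced by IL-4 and IL-13 in macrophages and made by adipose tissue, stood at 31.5, 30.7 and 32.03 CPM with the empty device, 10.7, 12.02 and 12.99 CPM with the loaded device and 14.6, 11.9 and 12.5 CPM without a device, so that the empty libraries stood above both other groups (edgeR log2 fold change -1.40 with SE 0.070 and adjusted p = 4.13e-11). Of 14 mast cell genes 3 rose and 2 fell (median 0.03), against 22.9% higher and 18.5% lower over all tested genes. Kit led them, a gene shared with melanocytes, and the mast cell protease Mcpt4 fell by 0.20 on the log2 scale.

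B cell and plasma cell genes were divided, with 4 up and 5 down of 18 tested (median -0.03). Over all tested genes 22.9% were higher and 18.5% lower. Jchain, which joins IgA and IgM chains, stood at 2.08, 2.51 and 3.26 CPM with the empty device and 4.89, 4.89 and 5.21 CPM with the loaded device and rose (edgeR log2 fold change 0.93 with SE 0.12 and adjusted p = 3.61e-06), and the constant genes Igha and Ighg2c rose by log2 fold changes of 0.42 and 0.46, while Ighg1 and Ighm fell, at log2 fold changes of -0.41 and -0.35. B cell clones differ in which variable segments of the antibody genes they use. Of 43 tested antibody segments 17 rose and 9 fell, and of 6 T cell receptor segments 2 fell. Of the 49 segments 27 were called with a change of at least 2-fold, and over all tested genes that share was 1.97%. A segment seen in a single group, such as Ighv8-8, passed the filter on low counts through that group alone. Large changes are thus partly built into the share of segments, and it is not like that of all genes. Most segments had few counts, at which smaller differences are not detectable. The examples were picked with their values in view. Ighv8-8, a heavy chain segment, was counted 2, 0 and 0 times in the empty-device libraries, 50, 56 and 60 times in the loaded-device libraries and 0, 2 and 0 times in the untreated libraries. Igkv3-12, a kappa segment, was counted 0, 7 and 2 times in the empty-device libraries, 38, 47 and 57 times in the loaded-device libraries and 40, 31 and 38 times in the untreated libraries, and Igkv8-19 was counted 83, 95 and 112 times in the empty-device libraries, 3, 3 and 4 times in the loaded-device libraries and 10, 19 and 12 times in the untreated libraries. In none of these 3 segments did the devices overlap. Whether the libraries of a group share an animal or a pool, and so B cell clones, is not given by the labels and was not tested. V segments share sequence, so the count of a single one is uncertain.

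**Figure D4:**
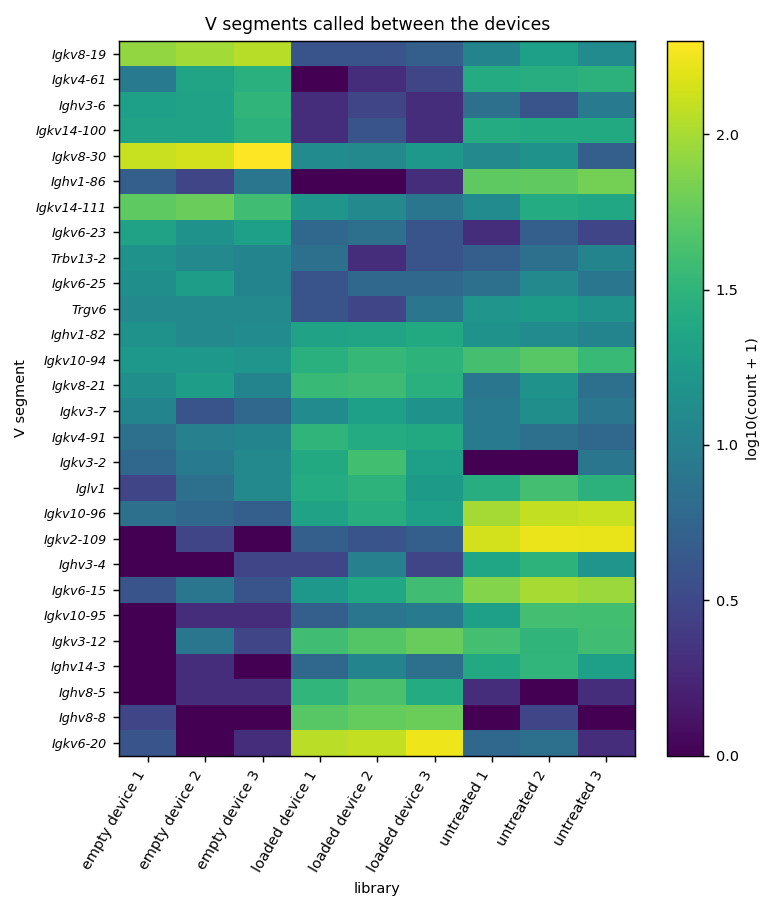
Counts of the 28 antibody and T cell receptor V segments called between the devices (rows) in the 9 libraries (columns), as log10(count + 1), ordered by fold change with the segments highest with the loaded device at the bottom. Ighv8-8 is seen at 50 to 60 counts with the loaded device and at 2 or fewer in the other libraries.

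Adipocyte genes rose with the loaded device. Of 20 tested, 15 rose and 1 fell (median 0.53). Adipoq, the gene of the fat hormone adiponectin, stood at 10.4, 10.5 and 9.95 CPM with the empty device, 30.6, 33.1 and 34.9 CPM with the loaded device and 24.3, 21.3 and 22.02 CPM without a device, with the loaded libraries above all others (edgeR log2 fold change 1.68 with SE 0.054 and adjusted p = 2.43e-18). Plin1, which coats lipid droplets, stood at 5.58, 5.65 and 5.05 CPM with the empty device and 15.8, 16.1 and 16.2 CPM with the loaded device (edgeR log2 fold change 1.57 with SE 0.058 and adjusted p = 6.43e-18), and Pck1, an enzyme of glyceroneogenesis in fat, at 6.75, 7.56 and 6.69 CPM with the empty device and 22.6, 23.9 and 26.1 CPM with the loaded device (edgeR log2 fold change 1.79 with SE 0.062 and adjusted p = 1.15e-17). Slc2a4, the insulin-dependent glucose transporter of fat and muscle, was the member called lower, at a log2 fold change of -0.51. Sebaceous genes were divided, with 7 up and 9 down of 17 (median -0.28). Fads2, a desaturase of sebum lipids, rose by 0.87 on the log2 scale, and Mgst1 rose by 0.72 on the log2 scale, while Acsbg1, Far2, Elovl4 and Dgat2, which make or elongate lipids, fell, at log2 fold changes of -0.64, -0.52, -0.53 and -0.51. Of 20 cholesterol synthesis genes 6 rose and 8 fell (median -0.04, and from -0.09 to -0.02 on leaving out 1 library).

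Skeletal muscle genes were lower, with exceptions among the myosins. Of 26 tested, 18 fell and 6 rose (median -0.52). Myh1, the myosin of fast 2X fibres, stood at 2389, 2428 and 2830.1 CPM with the empty device, 1414, 1451 and 1402 CPM with the loaded device and 1544, 1621 and 1596 CPM without a device (edgeR log2 fold change -0.84 with SE 0.049 and adjusted p = 2.86e-11). Myh4, the myosin of fast 2B fibres, rose instead and stood at 494, 496 and 566 CPM with the empty device, 1103, 1171 and 1288 CPM with the loaded device and 986, 1026 and 959.6 CPM without a device (edgeR log2 fold change 1.20 with SE 0.063 and adjusted p = 6.66e-09). Myh7, the slow myosin, and Tnnt1, a slow troponin gene, rose by log2 fold changes of 1.18 and 0.87. The myoglobin gene Mb and Acta1, skeletal actin, fell, at log2 fold changes of -0.85 and -0.71. The muscle-type respiratory subunit genes Cox6a2 and Cox7a1 fell, at log2 fold changes of -0.81 and -0.78. Over 20 nuclear respiratory genes 5 rose and 5 fell (median -0.02; 1, 2 and 3 rose without empty library 1, empty library 3 and loaded library 2), and of 13 mitochondrially encoded genes 9 rose (median 0.17).

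Dermal matrix genes were lower. Of 24 fibroblast and matrix genes 17 fell and 3 rose (median -0.20). Col1a1, a chain of type I collagen, stood at 204, 211 and 212 CPM with the empty device and 140.1, 143 and 139.8 CPM with the loaded device (edgeR log2 fold change -0.57 with SE 0.032 and adjusted p = 2.13e-14), and Col3a1 fell by 0.40 on the log2 scale. Tnc, the gene of tenascin-C, rose by 0.37 on the log2 scale. Of 20 genes of matrix proteases and their inhibitors 4 rose and 8 fell (median -0.19). Mmp12, the macrophage elastase, stood at 5.36, 5.35 and 5.21 CPM with the empty device, 8.53, 9.94 and 10.6 CPM with the loaded device and 34.9, 35.7 and 36.6 CPM without a device, above the empty device and far below the untreated libraries (edgeR log2 fold change 0.87 with SE 0.065 and adjusted p = 1.01e-11). Mmp3, stromelysin-1, fell by 0.75 on the log2 scale. Of 21 endothelial genes 6 fell and 15 were not called (median -0.02), and 18.5% of all tested genes were lower. The lymphatic genes Lyve1, Ccl21a and Prox1 were among those that fell, the last at a log2 fold change of -0.45. The vessel gene Pecam1 stood at 35.6, 35.7 and 39.7 CPM with the empty device and 36.8, 37.5 and 37.98 CPM with the loaded device and was not called (edgeR log2 fold change 0.02 with SE 0.041 and adjusted p = 0.786). Of 16 Schwann cell genes 7 fell and 1 rose (median -0.20), and Mbp, a myelin gene, was among those that fell, at a log2 fold change of -0.42. Of 12 smooth muscle genes 4 rose and 5 fell (median -0.11), and of 9 erythrocyte genes 4 rose (median 0.10).

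Genes that respond to handling, oxygen or the hour of sampling also differed. Of 20 hypoxia and glycolysis genes 17 fell and 3 were not called (median -0.31). Egln3, an oxygen-sensing hydroxylase, stood at 232, 226 and 229 CPM with the empty device, 131, 135 and 138 CPM with the loaded device and 191, 195 and 187 CPM without a device (edgeR log2 fold change -0.77 with SE 0.032 and adjusted p = 7.87e-17), and Vegfa, the vessel growth factor, at 67.03, 65.7 and 68.5 CPM with the empty device and 41.7, 42.7 and 44.2 CPM with the loaded device (edgeR log2 fold change -0.65 with SE 0.036 and adjusted p = 1.55e-14). The devices overlapped in neither. Of 22 immediate-early genes 5 rose and 9 fell (median 0.01), with Egr1 up by 0.34 on the log2 scale and Klf4 and Dusp1 down, at log2 fold changes of -0.39 and -0.34. Of 16 heat shock and chaperone genes 8 rose and 7 fell (median 0.08). Hsp90aa1, an inducible chaperone, rose by 0.73 on the log2 scale and Hspa1a fell by 0.45 on the log2 scale. Of 17 clock genes 5 rose and 8 fell (median -0.01; 3 rose without empty library 3): Per2 and Nfil3 rose by log2 fold changes of 0.65 and 0.49, and Arntl and Nr1d1 fell, at log2 fold changes of -0.39 and -0.43. The sources used here do not give the time of day at sampling, and its part in the contrast was not tested.

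**Figure D5:**
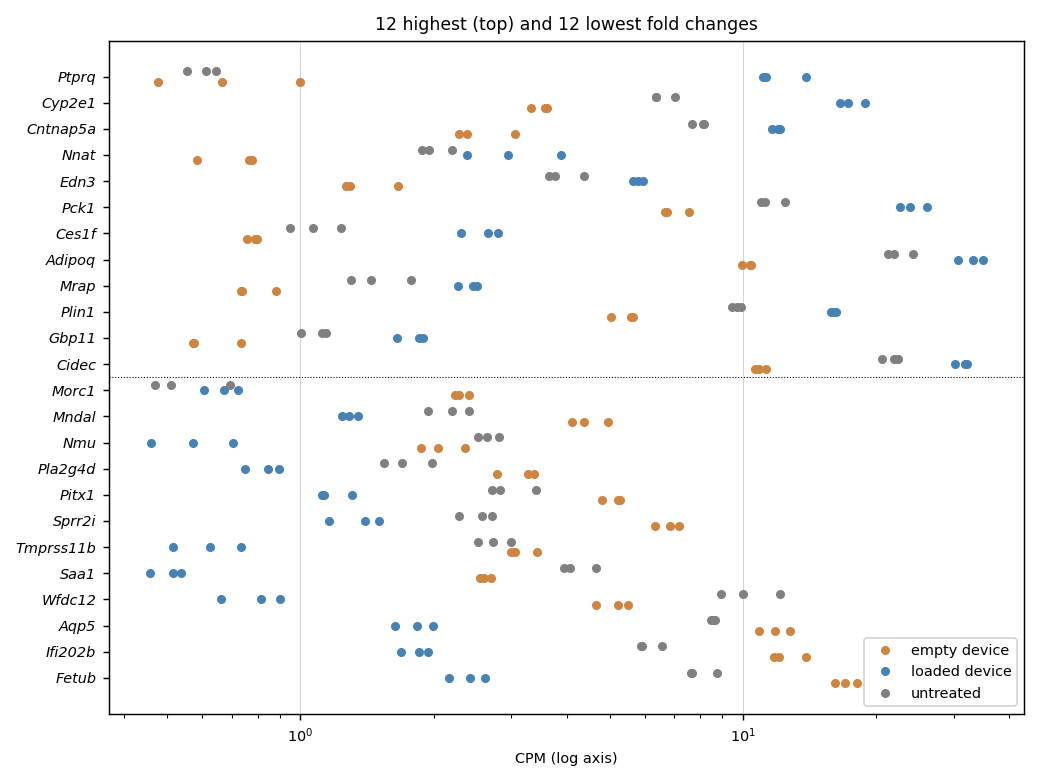
CPM on a log axis (x axis) of the 12 highest (top) and 12 lowest (bottom) fold changes among genes whose mean reached 1 CPM, by gene, in each library of the 3 groups. In all 24 genes the 3 loaded libraries lie apart from the 3 empty ones, as the choice of these genes requires.

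The 12 highest and 12 lowest called genes were taken from genes whose mean level reached 1 CPM and whose devices did not overlap, predicted and antisense genes left out, so their size and lack of overlap are descriptions. Some antibody segments under that level, such as Igkv8-19, had larger fold changes. Ptprq, a receptor phosphatase gene on chromosome 10 from 107352910 to 107555912 in mm39, was the highest of them, with 0.475, 0.665 and 0.995 CPM with the empty device, 13.9, 11.3 and 11.1 CPM with the loaded device and 0.644, 0.611 and 0.554 CPM without a device, a 16.9-fold difference. Cyp2e1, a cytochrome P450 on chromosome 7 from 140343652 to 140354900 in mm39, stood at 3.62, 3.58 and 3.32 CPM with the empty device, 16.6, 17.3 and 18.9 CPM with the loaded device and 7.01, 6.37 and 6.37 CPM without a device. Nnat, the gene of neuronatin, an imprinted membrane proteolipid, on chromosome 2 from 157401998 to 157404442 in mm39, stood at 0.767, 0.583 and 0.778 CPM with the empty device, 2.38, 2.95 and 3.88 CPM with the loaded device and 1.88, 2.20 and 1.95 CPM without a device. For Ptprq the empty and untreated libraries overlapped, and for the other two the empty libraries were the lowest of the 9. Cntnap5a, a neuronal adhesion gene, and Gbp11, a guanylate-binding protein gene, rose by log2 fold changes of 2.21 and 1.53, and Ces1f, Mrap and Cidec, genes known from liver or fat, rose by log2 fold changes of 1.72, 1.62 and 1.52.

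The lowest of the same set was Fetub, which encodes a secreted protease inhibitor, on chromosome 16 from 22737084 to 22758528 in mm39, with 17.05, 16.2 and 18.1 CPM with the empty device, 2.17, 2.62 and 2.42 CPM with the loaded device and 7.66, 8.74 and 7.67 CPM without a device, 7.12-fold lower with the loaded device. Ifi202b, of the interferon-inducible Ifi200 family, stood at 12.1, 11.7 and 13.9 CPM with the empty device, 1.95, 1.69 and 1.85 CPM with the loaded device and 5.92, 6.58 and 5.89 CPM without a device, and its neighbour in that family Mndal fell by 1.79 on the log2 scale. Aqp5, the water channel of sweat and salivary glands, stood at 12.8, 11.8 and 10.9 CPM with the empty device, 1.99, 1.83 and 1.64 CPM with the loaded device and 8.64, 8.57 and 8.46 CPM without a device. In these 3 genes the untreated libraries lay between the devices. Wfdc12, Tmprss11b, Sprr2i and Pla2g4d, genes of protease inhibition, of a protease, of the cornified envelope and of a phospholipase, fell, at log2 fold changes of -2.69, -2.33, -2.33 and -1.92. Pitx1, a transcription factor of hindlimb identity, stood at 5.28, 5.23 and 4.80 CPM with the empty device, 1.12, 1.30 and 1.13 CPM with the loaded device and 2.82, 3.41 and 2.71 CPM without a device, with the loaded libraries lowest. In the same set the neuropeptide gene Nmu and Morc1 fell, at log2 fold changes of -1.85 and -1.79. Some predicted genes outside these 24 were present in whole groups and nearly absent in others, and were picked with their values in view. Gm44009 was counted 0, 0 and 0 times in the empty-device libraries, 146, 127 and 123 times in the loaded-device libraries and 0, 0 and 0 times in the untreated libraries. Gm12923 was counted 0, 0 and 1 times in the empty-device libraries, 440, 570 and 662 times in the loaded-device libraries and 627, 438 and 532 times in the untreated libraries. Gm44009 passed the filter on low counts through the loaded libraries alone. For Gm12923 the loaded and untreated libraries overlapped.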

How the data were processed

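A Qiagen miRNeasy kit was used for the skin RNA and IDT's xGen Broad-Range kit for the libraries, per the labels' protocols. The submitters' processing notes name HISAT2, featureCounts and the build mm39. The authors deposited raw read counts per gene in 1 table, per the file headers. The sources used here do not give tool versions, the annotation or the strand setting. Listed gene length matched the full span in 99.9% of genes, so intron reads were counted. Overlapping genes can lose or share reads, and close copies can share them.

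The filterByExpr filter of edgeR 4.0.16 in R 4.3.3 (10 counts, total 15) kept 26081 of 42688 genes with a count. The 9 libraries entered 1 TMM-scaled fit with 3 groups, so the untreated libraries shared the estimate of the spread (common biological coefficient of variation 0.0390), and the robust quasi-likelihood test was used. P-values were adjusted over all tested genes (Benjamini-Hochberg) and called under 0.05. Log2 fold changes are loaded minus empty, and their standard errors come from the F statistic. "Rose", "fell" and "not called" refer to these calls, and a list's median is that of its tested members. Where the mean reached 1 CPM (16736 genes), 58.2% were called, so lists of well-expressed genes meet more calls than all tested genes do.

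The genes and the 49 lists were chosen with earlier results of these data known. Named are the 12 highest and 12 lowest called genes, without predicted and antisense genes, whose devices do not overlap and whose mean reaches 1 CPM. Added are members of each list among the 5 with the smallest p, and genes of the cargo, its receptors and T cell, interferon and follicle state. Other members were named with their values in view, and some genes are not reported here. The steps were tested on simulated counts. Alternatives were other scalings, filters and tests (DESeq2 1.42.0, limma 3.58.1), the replicate number as a block and the omission of each library.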

Additional observations from a re-analysis of the deposited data

How the results depend on the processing

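The count of called genes ranged from 9579 to 11330 over 20 alternatives, against 10805, and no gene called in both fits changed sign. Leaving out 1 library gave 9579 to 11330 calls. Upper-quartile scaling called 10764 genes, of which 44.4% were higher, and library size alone called 11159, of which 61.3% were higher. These scalings moved the median of all genes by -0.05 and 0.03 on the log2 scale, and directions of list medians close to 0 (B cell, cargo, clock, endothelial, immediate-early, mast cell and nuclear respiratory lists) flipped in at least 1 alternative. Called genes with a 2-fold change numbered 220 under the stricter filter (1 CPM in 3 libraries), which tested 17141 genes, against 513. Of 264 genes that the naming rule chose, 249 were called, and the calls of 7 changed in at least 1 alternative. They were Ccl5, Cd274, Cd4, Il2rb, Gzmc, Gzmk and Tpsb2, and for Tpsb2 the call was lost in 11 of 20. Replicate numbers are shared between the groups, and same-numbered libraries did not deviate together (correlations of 0.0018, -0.0030 and -0.0164). Where the spread within a group is technical, such deviations hold mostly noise. The correlations therefore cannot decide whether the numbers pair the libraries. With the replicate number as a block, 10753 genes were called, 10618 of them shared with the fit without it. Leaving out 1 library moved further list medians by over 1.5 times, beside those given with their lists and the lists close to 0 named above. They were those of the regulatory T cell (0.02 without empty library 1), cytotoxic (-0.15 and -0.04 without loaded libraries 3 and 2) and checkpoint lists (-0.04 without loaded library 1). The dendritic (-0.01 and -0.15 without empty libraries 3 and 2), erythrocyte (0.22 without loaded library 2) and heat shock lists (0.04 without empty library 3) moved likewise. Depth limits rare transcripts such as Foxp3, Il2, Ifng, Gzmb and Cd8a, which had few counts in every library.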

Other observations

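Gene families that the lists hold only in part were read as whole families, chosen after their values were seen. Families of the cornified envelope were lower with the loaded device throughout: all 14 tested Lce1 genes fell (median log2 fold change -0.82), all 6 Lce3 genes fell (median -1.50) and all 10 Sprr2 genes fell (median -1.15). Of 13 kallikrein genes, proteases that shed the outermost cells, 11 fell and 2 rose (median -0.80). Of 21 clade B serpins, many of which inhibit proteases, 11 fell and 10 were not called. Of 13 genes picked by stefin and cystatin-like symbols, mostly of cysteine protease inhibitors, 9 fell (median -0.65). Cstad, picked by its symbol alone, is not a cystatin gene and was not called. Of 9 gasdermin genes, some of which form membrane pores, 7 fell (median -0.40). These families hold close copies that can share reads, and 18.5% of all tested genes were lower.

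Of 11 Skint genes, which epidermal and thymic epithelial cells make and of which one is needed to select epidermal gamma-delta T cells, 9 fell (median -0.42). Of 10 genes of the Ifi200 family of DNA sensors 8 fell (median -0.57). Of 9 genes of muscle development and innervation 8 fell (median -1.09), and of 17 Asb genes, several of which are made in muscle, 10 fell and 2 rose (median -0.45). The shares that fell can be read against the 18.5% of all tested genes that were lower, and 41.4% were called in either direction.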
